A study of Rattus norvegicus with 15 samples.

Results

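The genes Gfap, Vim, Cd44, Lcn2 and Timp1, used as markers of reactive astrocytes and injured glia, were followed in rat brain after intracerebral hemorrhage, which is bleeding into the brain tissue. The genes were chosen by Ensembl gene ID, and 5 of 5 were present among the 15094 genes of the count table. Their IDs were ENSRNOG00000002919 (Gfap), ENSRNOG00000018087 (Vim), ENSRNOG00000006094 (Cd44), ENSRNOG00000013973 (Lcn2) and ENSRNOG00000010208 (Timp1). The symbols came with the choice of genes. The table holds IDs alone and the reference gene table holds no Ensembl IDs, so the pairing of these 5 IDs with symbols was not checked here.

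Brain tissue of Sprague-Dawley rats, labelled as basal ganglia, was sequenced 72 h after modelling in 3 groups. The Sham group (n = 5 libraries) had a sham operation, the ICH group (n = 3, replicates 1, 2 and 5) had a hemorrhage, and the ICH_MA group (n = 3, replicates 1, 2 and 3) had a hemorrhage followed by mithramycin A. Mithramycin A is a drug that binds GC-rich DNA and blocks the transcription factor Sp1 there. The design named 5 rats per group, but the count table covers only 11 of the 15 labelled samples. The other 4 had no counts and so could not be analysed here. All 4 belong to the hemorrhage groups, some to ICH and some to ICH_MA, and every Sham sample had counts. Why they lack counts is not known here, and whether they resembled the libraries analysed could not be tested. The sources used here do not give the dose and timing of the drug, any vehicle given to the other groups, the way the hemorrhage was made, or the age and sex of the rats. Libraries held 56393423 to 67733469 counts each, and the labels give 1 batch date for all of them. The labels name each library as a separate replicate of its group.

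Glial cells answer tissue damage with reactive gliosis, in which astrocytes enlarge, build up intermediate filaments and can wall off the lesion. Gfap and Vim encode filament proteins of that cytoskeleton. Cd44 encodes a surface receptor for the matrix sugar hyaluronan. Lcn2 encodes lipocalin 2, a secreted protein that binds bacterial siderophores and so withholds iron, and Timp1 encodes a secreted inhibitor of matrix metalloproteinases. None of these genes except Gfap is close to specific for astrocytes: vessel cells, fibroblasts and blood-derived leukocytes also express Vim, Cd44 or Timp1, and neutrophils carry lipocalin 2. In whole tissue, fewer cells of a type and less RNA per cell cannot be told apart. Markers of astrocytes, leukocytes or other cells could not be read because the other IDs have no symbols, so a part of cell makeup in the results was not tested, and the labelled tissue was not checked against its markers.

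Upstream sequence was examined because the drug given to the ICH_MA rats binds GC-rich DNA. RefSeq (build GRCr8, not the build listed for the counts) gave promoters for 5 of 5 genes, and the 250 bases before each start were searched on both strands. The motifs were the GC box GGGCGG, the CCAAT box CCAAT, the TATA box TATAAA, the AP-1 motif TGANTCA and the STAT motif TTCNNNGAA. Overlapping matches were allowed. The promoters shown are those of Vim and Timp1, which hold a GC box, and of Lcn2, whose level in treated rats lay on the other side of ICH. Gfap and Cd44, which are not shown, hold no GC box and also had lower mean levels in ICH_MA than in ICH. A link between the motif and the drug was not tested. Capitals mark motif matches.
Vim, chr17:81577011-81577260, plus strand: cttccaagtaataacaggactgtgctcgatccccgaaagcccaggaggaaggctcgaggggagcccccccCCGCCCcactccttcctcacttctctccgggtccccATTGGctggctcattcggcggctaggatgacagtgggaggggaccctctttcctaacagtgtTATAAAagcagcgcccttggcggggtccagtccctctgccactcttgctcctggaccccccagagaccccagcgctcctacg
Timp1, chrX:3771123-3771372, minus strand: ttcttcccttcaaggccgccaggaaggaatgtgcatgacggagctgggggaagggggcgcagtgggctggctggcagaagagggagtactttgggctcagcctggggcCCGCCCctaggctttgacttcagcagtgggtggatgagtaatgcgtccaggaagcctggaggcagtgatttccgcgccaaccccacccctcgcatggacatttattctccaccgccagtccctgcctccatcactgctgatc
Lcn2, chr3:36081781-36082030, minus strand: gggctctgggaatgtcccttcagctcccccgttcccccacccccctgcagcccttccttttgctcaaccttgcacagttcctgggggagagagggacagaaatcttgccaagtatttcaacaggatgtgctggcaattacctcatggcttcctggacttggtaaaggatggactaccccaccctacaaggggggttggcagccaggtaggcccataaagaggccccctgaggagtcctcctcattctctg

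In the Vim promoter the GC box lay 180 to 175 bases before the start, the CCAAT box 144 to 140 bases before it (both read on the opposite strand) and the TATA box 82 to 77 bases before it. The Timp1 promoter held a GC box on the opposite strand, 142 to 137 bases before the start, and no other match. No motif of the 5 matched in the promoters of Gfap, Cd44 and Lcn2, which says only that these letters are not in this window. Of all 33469 RefSeq rat promoters of this length, 30.5% held the GC box, 34.0% the CCAAT box, 12.9% the TATA box, 6.34% the AP-1 motif and 7.67% the STAT motif. The GC share of the sequence was 57.6% for Gfap, 62.4% for Vim, 60.8% for Cd44, 57.2% for Lcn2 and 61.2% for Timp1, against a median of 51.2% over all promoters. Of all promoters, 19.4% had a higher share than Vim, the highest of the 5, and 31.0% a higher share than Lcn2, the lowest. These are descriptions of the sequence, and no binding was measured.

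All 5 genes rose with hemorrhage. Gfap rose 4.75-fold, Vim 7.39-fold, Cd44 5.05-fold, Lcn2 15.8-fold and Timp1 23.1-fold in ICH against Sham, and each passed the test (edgeR quasi-likelihood F test, Benjamini-Hochberg adjusted over 14963 genes, threshold 0.05). In the same comparison 24.5% of all genes tested passed, 15.0% as rises. The median log2 fold change was 2.89 over the 5 genes and 0.00 over all genes. Levels are given in CPM, counts scaled to a common library total with TMM factors, and are not divided by gene length, so they compare libraries and not genes.

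**Figure D1:**
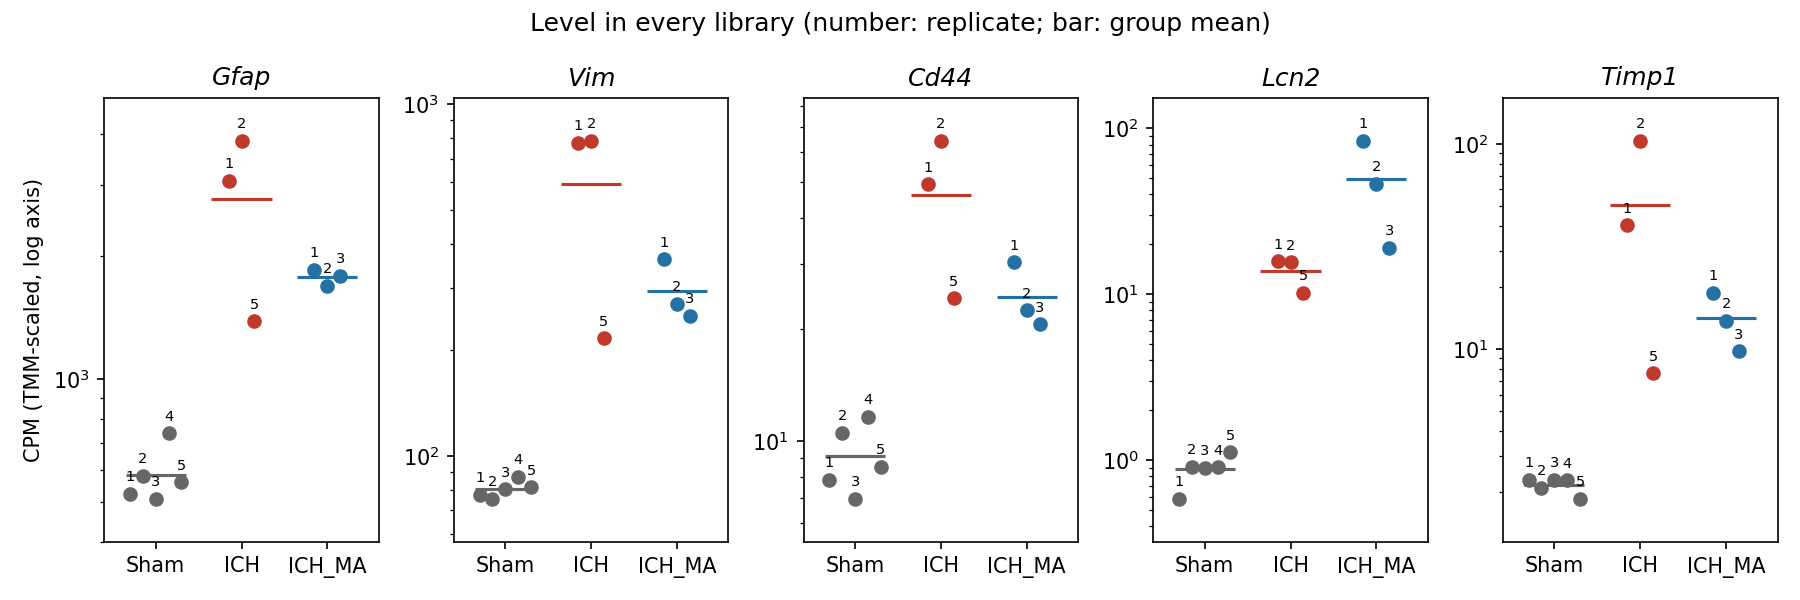
Level of each gene in each of the 11 libraries, in CPM on a log axis whose range differs between panels. Points are libraries numbered by replicate and bars are group means. ICH replicate 5 is the lowest ICH library in every panel, and Lcn2 alone has all 3 ICH_MA libraries above the ICH libraries.

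Gfap, which encodes a filament protein of astrocytes, was at 509 CPM in the lowest Sham library, 559 CPM at the median and 737 CPM in the highest. The ICH libraries had 3066, 3838 and 1389 CPM in replicates 1, 2 and 5. Both groups stood clear of each other, and replicate 5 was well below the other two ICH libraries. On the log2 scale the rise was 2.25 (SE 0.24, edgeR adjusted p = 0.000293, 3 against 5 libraries), and 1.46% of all genes had a higher one.

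Vim, whose filaments co-assemble with those of Gfap in reactive astrocytes, was nearly constant among Sham libraries, with a lowest, median and highest value of 75.3, 80.3 and 87.3 CPM. It reached 778, 787 and 216 CPM in ICH replicates 1, 2 and 5. Replicates 1 and 2 almost coincided, while replicate 5 lay nearer to Sham but still above each Sham library. The log2 rise was 2.89 (SE 0.32, edgeR adjusted p = 0.000305), and 0.869% of all genes had a higher one.

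Cd44 was at 6.97, 8.51 and 11.6 CPM in the lowest, median and highest Sham library and at 49.1, 64.3 and 24.3 CPM in ICH replicates 1, 2 and 5. The groups did not overlap. Its log2 fold change of 2.34 had an SE of 0.27 (edgeR adjusted p = 0.000355), a size close to that of Gfap.

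Lcn2 was scarce in Sham, where the libraries held 39 to 61 counts, or 0.583, 0.906 and 1.11 CPM as the lowest, median and highest value. ICH replicates 1, 2 and 5 had 15.8, 15.6 and 10.2 CPM, from 942, 942 and 675 counts. Replicate 5 was again the lowest, but in fold terms it lay nearer to the others than for Gfap, Vim, Cd44 and Timp1. Its log2 rise was 3.98 (SE 0.40, edgeR adjusted p = 0.00023), and 0.354% of all genes had a higher one.

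Timp1 had the largest fold change of the 5 and the widest spread. Sham libraries had 1.86, 2.29 and 2.31 CPM as the lowest, median and highest value, and ICH replicates 1, 2 and 5 had 40.1, 103 and 7.63 CPM. Every ICH library was above every Sham library, although the highest ICH value was 13.6 times the lowest. The log2 rise was 4.53 (SE 0.59, edgeR adjusted p = 0.00059), and 0.241% of all genes had a higher one. Without ICH replicate 2, the library with most Timp1, the log2 fold change was 3.45 (edgeR adjusted p = 0.002).

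Complete separation of ICH above Sham was seen for 5 of 5 genes and for 15.2% of all genes tested. All 5 rises passed in each of the 18 alternative fits described in the closing section. Together the 5 genes took 0.0583% to 0.083% of a library's counts in Sham and 0.166% to 0.496% in ICH.

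The size of the response differed among ICH libraries, and least so for Lcn2. Relative to the Sham mean on the log2 CPM scale, ICH replicates 1 and 2 stood 5.31-fold and 6.65-fold higher for Gfap, and replicate 5 stood 2.41-fold higher. For Vim the values were 9.7-fold, 9.81-fold and 2.7-fold, and for Cd44 they were 5.48-fold, 7.18-fold and 2.71-fold. Timp1 spread furthest, at 18.3-fold, 47.1-fold and 3.49-fold. Lcn2 stood at 17.6-fold, 17.5-fold and 11.4-fold, so its ICH libraries lay closest together.

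The coefficient of variation (SD as a percentage of the mean) expresses the same spread on the CPM scale. In ICH it was 45.3% for Gfap, 55.1% for Vim, 44.1% for Cd44, 96.7% for Timp1 and 22.8% for Lcn2, where the median over 14390 genes with a mean of at least 1 CPM was 9.95%. Among ICH_MA libraries it was 4.5% for Gfap, 20.4% for Vim, 21% for Cd44, 32.1% for Timp1 and 65.6% for Lcn2, against a median of 7.53%. Gfap thus varied widely in untreated hemorrhage and little in treated hemorrhage, and Lcn2 had the opposite order. Differences in spread between groups of 3 libraries were not tested.

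The study asked which genes changed by hemorrhage turn back under mithramycin A. In treated rats Gfap, Vim, Cd44 and Timp1 had lower mean levels than in ICH and Lcn2 had a higher one, but none of these differences passed the test. With edgeR 0 of 5 genes passed in ICH_MA against ICH (3 against 3 libraries), as did 0% of all 14963 genes, and limma-voom also called 0 genes. At an unadjusted p under 0.05 there were 5 of 5 genes, and 15.5% of all genes. The median log2 difference was −0.91 over the 5 genes and −0.02 over all genes.

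**Figure D2:**
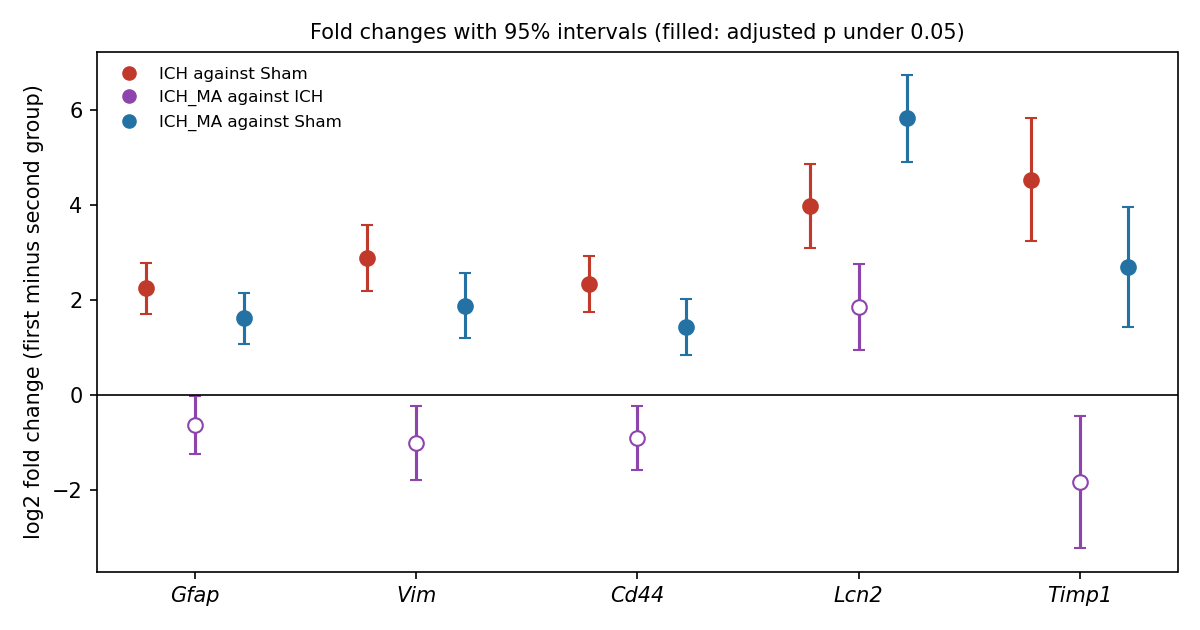
Log2 fold change of each gene in the 3 comparisons, with 95% intervals from the edgeR fit. Filled points have an adjusted p under 0.05 and open points do not. Both comparisons with Sham are above 0 for each gene, and in ICH_MA against ICH 4 genes are below 0 and Lcn2 is at 1.84.

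Gfap was at 1856, 1697 and 1792 CPM in ICH_MA replicates 1, 2 and 3. These tightly grouped values lay below ICH replicates 1 and 2 and above ICH replicate 5, so the groups overlapped. The log2 difference from ICH was −0.63 with SE 0.28 and a 95% interval of −1.24 to −0.02 before adjustment (edgeR adjusted p = 0.307).

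Vim was at 363, 271 and 250 CPM in ICH_MA replicates 1, 2 and 3. All 3 values fell between ICH replicate 5 (216 CPM) and the other ICH libraries. The log2 difference was −1.01 with SE 0.36, an interval of −1.80 to −0.23 (edgeR adjusted p = 0.231).

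Cd44 was at 30.3, 22.5 and 20.6 CPM in ICH_MA replicates 1, 2 and 3. ICH replicate 5, at 24.3 CPM, lay among them. The log2 difference was −0.91 with SE 0.30, an interval of −1.57 to −0.24 (edgeR adjusted p = 0.22).

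Timp1 was at 18.8, 13.8 and 9.74 CPM in ICH_MA replicates 1, 2 and 3, again between ICH replicate 5 and the other ICH libraries. Its log2 difference of −1.84 was the lowest of the 5, and 0.267% of all genes had a lower one. The SE was 0.63 and the interval −3.23 to −0.45 (edgeR adjusted p = 0.229).

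Lcn2 departed from this order. ICH_MA replicates 1, 2 and 3 had 84.1, 46.3 and 19.0 CPM, from 5127, 2640 and 1295 counts, and ICH libraries had at most 15.8 CPM. Each treated library was above each ICH library, which held for 1 of 5 genes and in this direction for 7.87% of all genes. The mean in treated rats was 49.8 ± 32.7 CPM, against 13.9 ± 3.17 CPM in ICH (SD, n = 3 each). The log2 difference was 1.84 with SE 0.41 and an interval of 0.94 to 2.75, or 3.59-fold (edgeR adjusted p = 0.176, equal to the smallest adjusted p in this comparison, which it shared with other genes). Only 0.12% of all genes had a higher log2 difference.

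The call for Lcn2 depended on the tool. DESeq2 gave a log2 difference of 1.85 (DESeq2 adjusted p = 0.0125), 1 of 5 genes, where DESeq2 called 3.19% of all genes. Over the 18 alternatives its adjusted p ranged from 0.0125 to 0.461 and its log2 difference from 1.23 without ICH_MA replicate 1 to 2.23 without ICH_MA replicate 3. The difference stayed above 0 in each of the 18.

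The values of the other 4 genes depended on single ICH libraries, and their calls on ICH replicate 5. Without it, Gfap, Vim, Cd44 and Timp1 passed as lower in ICH_MA than in ICH, 4 of 5 genes, where 7.59% of all genes passed and 5.68% did so as falls. Their log2 differences were then −0.95 (Gfap, edgeR adjusted p = 0.00537), −1.41 (Vim, edgeR adjusted p = 0.000561), −1.21 (Cd44, edgeR adjusted p = 0.011) and −2.35 (Timp1, edgeR adjusted p = 0.00405). Lcn2 stood at 1.66 (edgeR adjusted p = 0.0584). That fit has only ICH replicates 1 and 2 on the ICH side. Against the fit of all libraries, its SE was smaller for the 4 genes, as for Vim at 0.13 against 0.36. For Lcn2 the SE was larger, at 0.47 against 0.41. Leaving out any other single library gave 0 of 5 genes. Without ICH replicate 2 the log2 differences moved towards 0, to −0.32 for Gfap (edgeR adjusted p = 0.624), −0.75 for Vim (0.44), −0.58 for Cd44 (0.44) and −0.76 for Timp1 (0.541). ICH replicate 5 held 65438000 counts, against 58895560 and 58317912 in ICH replicates 1 and 2. Nothing in the labels sets it apart, and the reason for its lower levels was not tested.

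**Figure D3:**
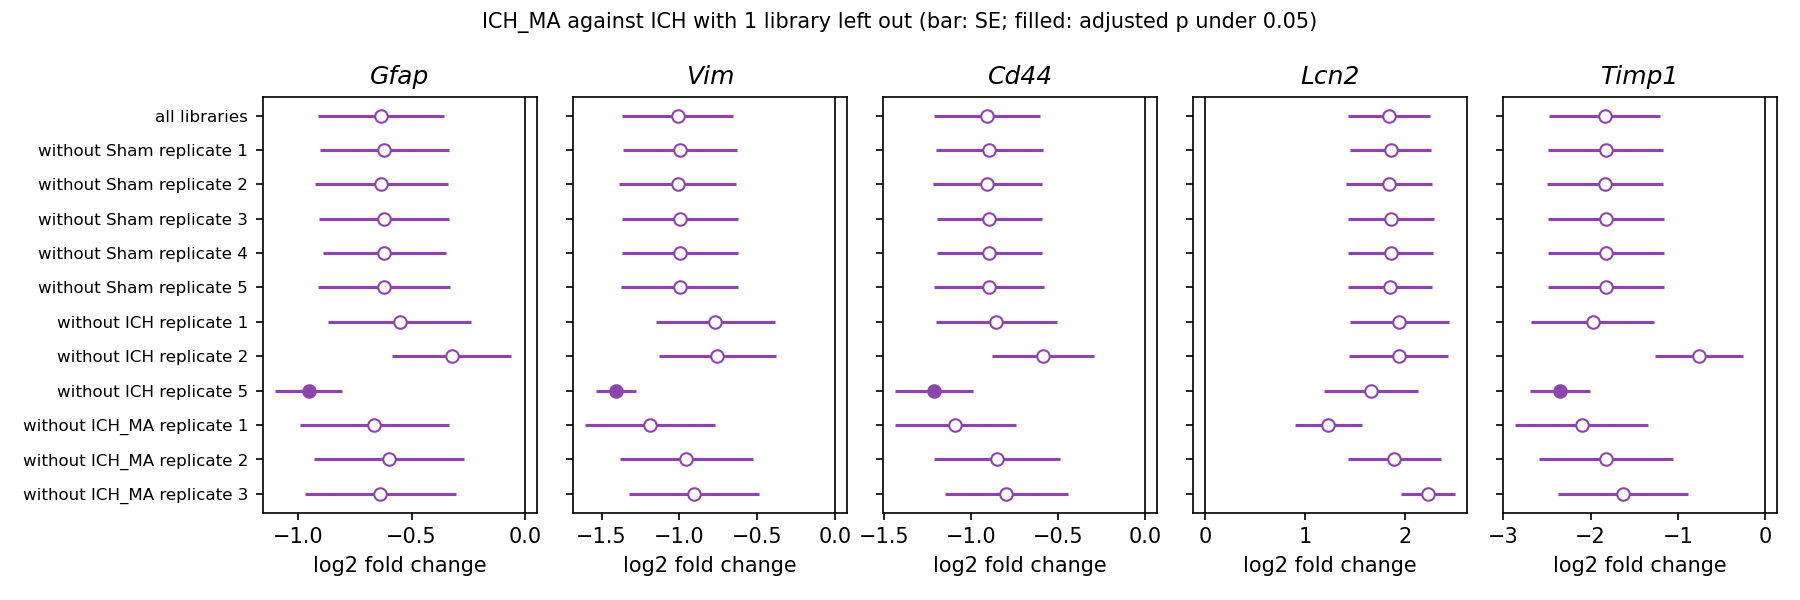
Log2 difference of ICH_MA from ICH for each gene with all libraries and with each library left out in turn. Bars are standard errors, and filled points have an adjusted p under 0.05. Gfap, Vim, Cd44 and Timp1 are filled only without ICH replicate 5, and Lcn2 stays above 0 in each row.

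Treated rats still differed from Sham in all 5 genes. In ICH_MA against Sham, Gfap was 3.06-fold higher, Vim 3.67-fold, Cd44 2.69-fold, Timp1 6.47-fold and Lcn2 56.6-fold. With edgeR 5 of 5 genes passed, all as rises, where 6.67% of all genes passed and 5.00% did so as rises. The median log2 fold change was 1.88 over the 5 genes and 0.00 over all genes.

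The log2 fold change against Sham was 1.61 for Gfap with SE 0.24 (edgeR adjusted p = 0.00426) and 1.88 for Vim with SE 0.31 (edgeR adjusted p = 0.00665). For Cd44 it was 1.43 with SE 0.27 (edgeR adjusted p = 0.0116). Each ICH_MA library was above each Sham library for 5 of 5 genes, as for 11.8% of all genes. The 5 genes took 0.205% to 0.237% of the counts of an ICH_MA library.

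The log2 rise of Lcn2 was 5.82 (SE 0.41, edgeR adjusted p = 0.000128). Of all genes, 0.0735% had a higher one. It was 5.21 without ICH_MA replicate 1, the library with most Lcn2, and the call held in each of the 18 alternatives.

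Timp1 was the least secure of the 5 in treated rats. Its log2 fold change of 2.69 had an SE of 0.57 (edgeR adjusted p = 0.0199), and 7 of 18 alternatives did not give the call, with an adjusted p of up to 0.253. Among these were the fits without Sham replicate 2, 3 or 5 and without ICH_MA replicate 1 or 2, with edgeR adjusted p values of 0.0509, 0.0502, 0.0525, 0.0703 and 0.0648. Cd44 also lost its call without ICH_MA replicate 1 (edgeR adjusted p = 0.0532), which left 3 of 5 genes called, where this fit called 3.06% of all genes.

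The order of group means was Sham, then ICH_MA, then ICH for Gfap, Vim, Cd44 and Timp1, and Sham, then ICH, then ICH_MA for Lcn2. The step from Sham to the next group exceeded the spread of libraries for each gene. The step between the hemorrhage groups did not exceed it for any of the 5. For the 4 genes ICH replicate 5 lay inside or below the ICH_MA range. For Lcn2 the 2 hemorrhage groups did not overlap. Its means were 13.9 CPM in ICH and 49.8 CPM in ICH_MA, but ICH_MA libraries spread over 19.0 to 84.1 CPM. On the scale of mean log2 CPM from Sham (0) to ICH (1), ICH_MA lay at 0.761 for Gfap, 0.696 for Vim, 0.637 for Cd44, 0.684 for Timp1 and 1.41 for Lcn2. Without ICH replicate 5 these places were 0.632, 0.565, 0.54, 0.54 and 1.34. Both ends of the scale use the same Sham and ICH libraries as the comparisons above, so the places restate them on another scale and carry no test.

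Ratios of counts within a library do not depend on how libraries are scaled, and they show how the mix of the 5 transcripts changed. Each gene was set against Gfap as log2((count + 1)/(Gfap count + 1)), and groups were compared by exact two-sided permutation tests, 12 in all, adjusted together. With 3 against 5 libraries the smallest possible p is 0.0357, and with 3 against 3 it is 0.1. After adjustment over the 12 tests the smallest possible values are 0.0536 and 0.1, so no ratio could pass 0.05, and the ratios are given as descriptions with their p-values. Gfap itself was higher in both hemorrhage groups, so a gene at a steady level has a lower ratio there. The share of all genes whose ratio to Gfap separates these groups was not computed. Separation of a ratio is therefore not read as particular to these genes.

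**Figure D4:**
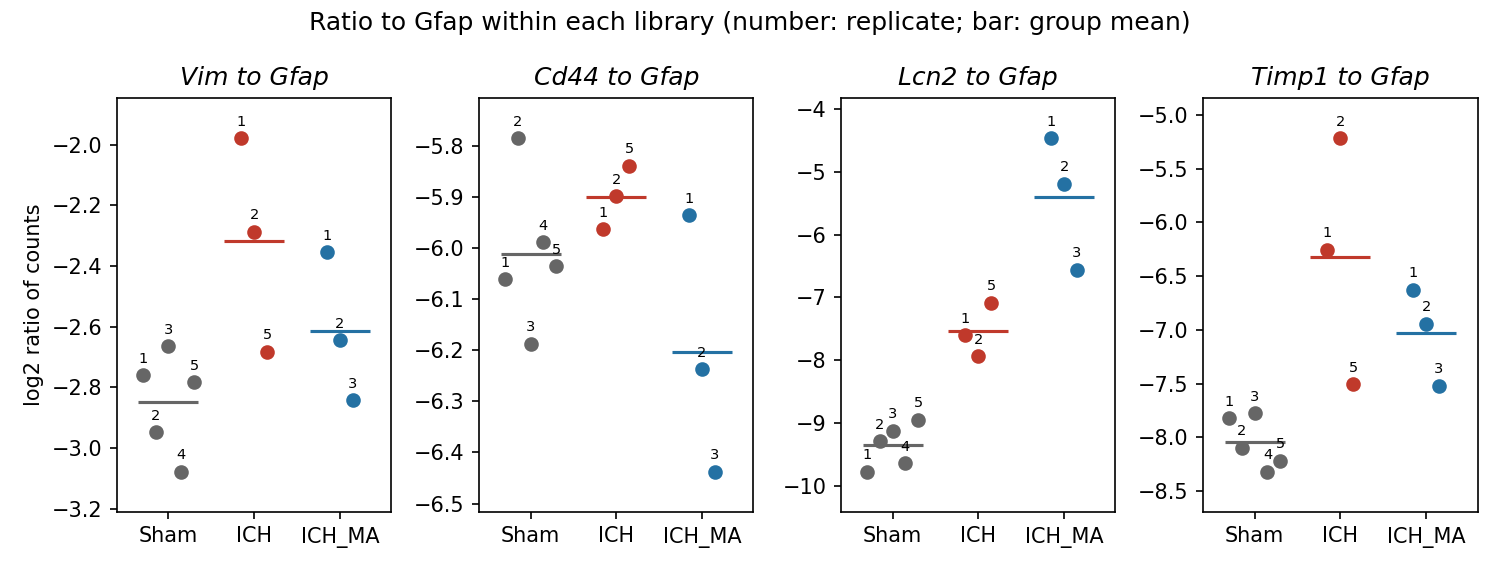
Log2 ratio of each gene's count to the Gfap count in each library. Points are libraries numbered by replicate, bars are group means, and the vertical range differs between panels. The Lcn2 ratio separates all 3 groups, and the Cd44 ratio stays within −6.44 to −5.78 in all 11 libraries.

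The Lcn2 to Gfap ratio separated all 3 groups. Sham libraries ranged from −9.78 to −8.95, ICH libraries from −7.94 to −7.09 and ICH_MA libraries from −6.56 to −4.46. Its mean was higher by 1.82 in ICH than in Sham (exact permutation p = 0.0357, adjusted 0.107), by 3.95 in ICH_MA than in Sham (exact permutation p = 0.0357, adjusted 0.107), and by 2.14 in ICH_MA than in ICH (exact permutation p = 0.1, adjusted 0.2). The unadjusted values are the smallest these designs allow.

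The Timp1 to Gfap ratio separated each hemorrhage group from Sham. Sham libraries ranged from −8.32 to −7.78, ICH libraries from −7.51 to −5.21 and ICH_MA libraries from −7.52 to −6.63. The mean was higher by 1.72 in ICH and by 1.02 in ICH_MA than in Sham (exact permutation p = 0.0357 and adjusted 0.107 for each). ICH_MA and ICH libraries overlapped, with a mean difference of −0.70 (exact permutation p = 0.4).

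The Vim to Gfap ratio averaged −2.85 ± 0.16 in Sham, −2.32 ± 0.35 in ICH and −2.61 ± 0.24 in ICH_MA (SD over 5, 3 and 3 libraries), and the groups overlapped. The Cd44 to Gfap ratio was −6.01 ± 0.15 in Sham, −5.90 ± 0.06 in ICH and −6.20 ± 0.25 in ICH_MA. The spread of the Cd44 ratio in ICH was small although Cd44 itself ranged from 24.3 to 64.3 CPM there. Cd44 and Gfap thus had similar fold differences from Sham in each ICH library.

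The 6 hemorrhage libraries fell in the same order for Gfap, Vim, Cd44 and Timp1 at the top. ICH replicate 2 was highest, ICH replicate 1 next and ICH_MA replicate 1 came after them for each of these genes. ICH replicate 5 was the lowest of the 6 for Gfap, Vim and Timp1, and lay above ICH_MA replicates 2 and 3 for Cd44. For Lcn2 the order began with ICH_MA replicates 1, 2 and 3 and went on with ICH replicates 1, 2 and 5.

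Among other genes, those with levels most like the 5 were sought by the Pearson correlation of log2 CPM with the mean of the 5 centred genes over 11 libraries, among 14385 genes with a mean of at least 1 CPM. The libraries fall into groups, so the correlation mostly reflects group differences and is a description with no test. ENSRNOG00000037113 (r = 0.9944) ranged over 4.32 to 5.15 CPM among Sham libraries, 7.76 to 15.2 CPM among ICH and 9.34 to 11.9 CPM among ICH_MA libraries. ENSRNOG00000012804 (r = 0.9936) was at 8.4 to 10.7, 24.2 to 58.1 and 27.9 to 43 CPM in the same groups. Their log2 differences between ICH_MA and ICH were −0.18 and −0.40. In this comparison Lcn2 differed in the opposite direction to the other 4 genes, so they partly cancel in the mean of the 5. Genes that follow this mean therefore differ little here by construction, and they match none of the 5 in this comparison.

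At the other end, ENSRNOG00000014044 (r = −0.9656) ranged over 40.4 to 43.1 CPM among Sham libraries, 34 to 39 CPM among ICH and 36.4 to 38 CPM among ICH_MA libraries. ENSRNOG00000005206 (r = −0.9655) fell further, with 65.5 to 70.3 CPM among Sham and 39.1 to 57.2 CPM among ICH libraries (log2 fold change −0.51, edgeR adjusted p = 0.0037). Correlations above 0.9 were common, at 4.23% of the genes ranked.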

How the data were processed

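The authors deposited unnormalized counts, whole numbers for each Ensembl gene ID in 11 libraries. Columns were matched to samples by library name. Per the submitters' processing notes, Bowtie2, RSEM 1.3.1, DESeq2 1.4.5 and build mRatBN7.2 were used. The sources used here do not give their roles, rounding, strand use or annotation, so reads of overlapping or similar genes could be divided between IDs.

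Low counts were removed by filterByExpr (minimum count 10, total 15), leaving 14963 genes, 5 of 5 chosen genes among them. One edgeR 4.0.16 quasi-likelihood model (R 4.3.3, TMM) with group means covered all libraries. The SE is the log2 fold change divided by the root of F, with a prior count of 2 for log2 CPM. The test, on simulated counts, recovered 82% of 200 genes changed 2-fold for ICH against Sham and 75.5% for the drug comparison. These genes were drawn at random, and each had the same spread in all groups. The 5 genes varied more than the median gene in ICH, so these shares do not give the power for them. Permutation tests used SciPy 1.17.1. Genes of similar pattern were named by highest and lowest correlation.

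The 5 genes, the lists and the tests were chosen with earlier results of these data known. Lists of related genes and cell markers hold symbols, and 0 of the IDs matched a symbol, so they were not analysed here. P-values set the difference between groups against the spread between these libraries. Alternatives were DESeq2 1.42.0, limma-voom (limma 3.58.1), other scalings, no filter, fewer groups, a replicate block and each library left out.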

Additional observations from a re-analysis of the deposited data

How the results depend on the processing

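For the 5 genes, directions held in all 18 alternatives of each comparison. In ICH against Sham 5 of 5 genes passed in each of them. In ICH_MA against ICH the number passing was 0 with all libraries, 1 with DESeq2, and 0 to 4 with a library left out. In ICH_MA against Sham it was 5 with all libraries, 1 with the replicate block, and 3 to 5 with a library left out.

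Over all genes, ICH against Sham gave 3662 genes, 1914 with the replicate block and 1992 to 4484 with a library left out. ICH_MA against ICH gave 0 genes with edgeR, 0 with limma-voom, 477 with DESeq2 and 0 to 1137 with a library left out. ICH_MA against Sham gave 998 genes, 1830 with DESeq2, 1541 with only the groups compared, 117 with the replicate block and 348 to 1575 with a library left out. The cause was not tested.

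The libraries share only a number across groups: same-numbered libraries had correlations of −0.194 to 0.06 in their deviations from group means. With the replicate block, in ICH_MA against Sham, Lcn2 alone passed. The log2 fold changes of the other 4 were then 1.57 for Gfap (edgeR adjusted p = 0.053), 1.68 for Vim (0.101), 1.42 for Cd44 (0.0665) and 2.28 for Timp1 (0.162). Timp1 also did not pass with limma-voom (adjusted p = 0.253), where its log2 fold changes were 3.82 for ICH against Sham and −1.20 for the drug comparison. The 12 ratios to Gfap kept their direction in each alternative, and their tests could not pass 0.05 in any. Sham levels of Lcn2 rest on 39 to 61 counts per library, which limits the precision of its fold changes.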
